A study of Arabidopsis thaliana with 21 samples.

Results

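APETALA1 (AP1, AT1G69120), CAULIFLOWER (CAL, AT1G26310), FRUITFULL (FUL, AT5G60910) and AGL79 (AT3G30260) form the AP1 clade of MADS-box genes in Arabidopsis thaliana, and SEPALLATA1 to 4 (SEP1, AT5G15800; SEP2, AT3G02310; SEP3, AT1G24260; SEP4, AT2G03710) form the SEP clade. These 8 genes were picked by locus identifier, out of 33602 annotated loci and 27416 protein-coding genes, and all 8 were found in the deposited TAIR10 gene annotation. They belong to the 39 MIKC-type MADS-box genes listed for comparison, which leaves 31 others. The study made 21 RNA libraries in 7 groups of 3 biological replicates. The accession was Col-0 throughout, and the plants grew with 16 h of light per day at 20 °C. Mutant soc1-ful plants (12 libraries) gave leaf, wood stem, cambium stem and herbaceous stem, and wild-type plants (WT, 9 libraries) gave leaf, cambium stem and herbaceous stem. The genotype label reads soc1-ful, without naming alleles. The annotation has no column that belongs to a library, so expression, depth and differences between soc1-ful and WT are not analysed here. The labelled tissues could not be set against marker genes for the same reason.

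MIKC-type proteins carry a DNA-binding MADS domain, an intervening region, a keratin-like K domain through which they form dimers and tetramers, and a variable C-terminal part. AP1 and CAL specify floral meristem identity, and AP1 also sepals and petals. FUL acts in fruit development, in flowering and in the shoot meristem. The SEP proteins join the other floral organ identity proteins in tetramers and are needed in all floral whorls. Most MIKC-type genes have a short series of small exons that encode the K domain, behind a first exon that encodes most of the MADS domain and a long first intron.

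In the first listed isoform, the 2 clades differed at the exon 2 to exon 3 junction. It lay 3 bases further downstream in the coding sequence in every SEP clade gene. SEP3 isoforms 2 and 3 had an exon 2 of 85 bp in place of 82 bp, so their junction lay further downstream still. The junction followed coding base 264 in AP1, CAL, FUL and AGL79, against base 267 in SEP1, SEP2, SEP3 and SEP4. Coding bases 250 to 279 are shown because they contain this junction, with exon 2 in capitals and exon 3 in lower case, 5′ to 3′. Positions are TAIR10 and span the intron, and the bases were read from the TAIR10.1 sequence of RefSeq.
AP1, chr1:25984382-25984511, minus strand: GAGTCCGACGTCAATacaaactggtcgatg
CAL, chr1:9102066-9102206, minus strand: GACTCTCACGTTAATgcacagacgaactgg
FUL, chr5:24504757-24504871, minus strand: GACGTTTCACAAAGTgaaaattgggttcta
AGL79, chr3:11911077-11911213, plus strand: AATTTGGATTCACAGggagagtgctcaaca
SEP1, chr5:5152548-5152667, minus strand: CCTGCCAAAGAACTTGAGaacagctacaga
SEP2, chr3:465669-465839, minus strand: CCTGCTAAAGAGCTTGAGaacagctacaga
SEP3, chr1:8594686-8594827, minus strand: TCAAGAGAGGCCTTAGCAgaacttagtagc
SEP4, chr2:1130639-1130736, plus strand: TCAGCTAAAGACTTGCAGgataagtatcaa
The capitals run for 15 bases in the AP1 clade and for 18 in the SEP clade.

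All 8 genes had a first coding exon of 185 bp and a coding exon 4 of 100 bp in the first listed isoform. Exons are numbered by coding exon here. A first coding exon of 185 bp was found in 0.238% of the coding genes with 2 or more coding exons, and in 7 of the 31 other MIKC-type genes, of which 16 had 182 bp. Exon 4 of 100 bp was the rule among MIKC-type genes, with 27 of the 31 others. Exon 2 had 79 bp throughout the AP1 clade, against 82 bp throughout the SEP clade. Exon 3 had 65 bp in AP1, FUL and AGL79 and 71 bp in CAL, against 62 bp in SEP1, SEP2 and SEP4 and 68 bp in SEP3. The sum of exons 2 and 3 did not differ with the junction and was 144 bp in AP1, FUL, AGL79, SEP1, SEP2 and SEP4. CAL and SEP3 had 150 bp, that is 6 bp more in exon 3 than their own clade, and 519 bp up to the end of exon 6 in place of 513 bp. Every intron position had the same phase in all member genes that have it (7 of 7 positions), and all 54 introns began with GT and ended with AG. Phases and intron ends were not counted in other genes, so neither is shown to be particular to these members.

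**Figure D1:**
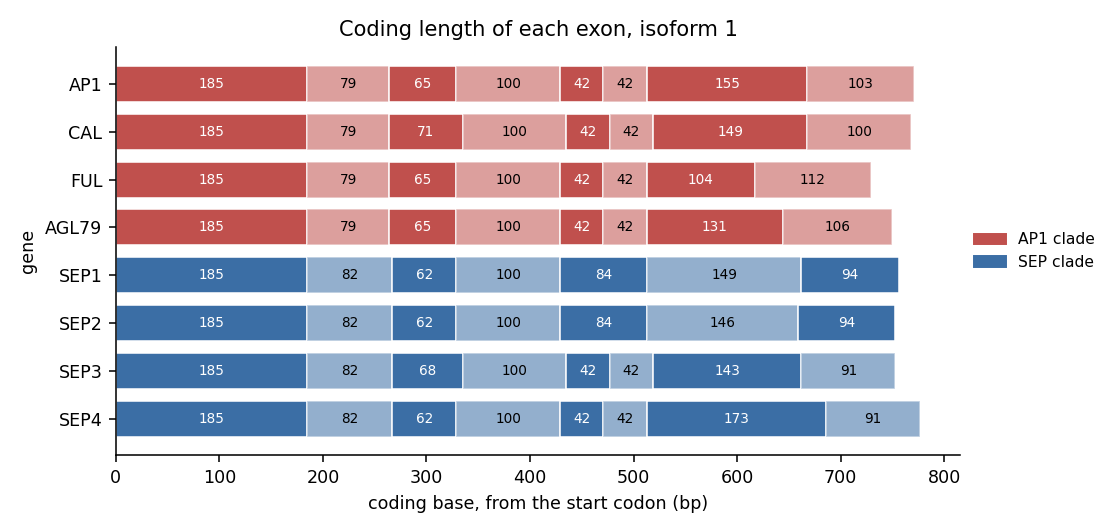
Coding length of each exon in bp from the start codon, for isoform 1 of the 4 AP1 clade genes (red) and the 4 SEP clade genes (blue); alternating shades mark successive exons. Exons 1 (185 bp) and 4 (100 bp) have 1 length in all 8 genes, exon 2 has 79 bp in the AP1 clade and 82 bp in the SEP clade, and SEP1 and SEP2 have an exon of 84 bp where the other 6 have 42 and 42 bp.

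Of the 8 coding exons, 5 had a single length throughout the AP1 clade (exons 1, 2, 4, 5 and 6), against 3 throughout the SEP clade (exons 1, 2 and 4). SEP1 and SEP2 had 7 exons each, where the other 6 members had 8. Over all coding genes, 3.86% had 8 exons. Among the 31 other MIKC-type genes, 7 had 8 coding exons and 18 had 7. Where the other members had exons 5 and 6 of 42 bp each, SEP1 (chromosome 5, 5152135 to 5152218) and SEP2 (chromosome 3, 465206 to 465289) had a single exon of 84 bp. A coding exon of 42 bp was annotated in 1.43% of coding genes, in 6 of the 8 members, and as both exon 5 and exon 6 in 18 of the 31 other MIKC-type genes. None of those 31 had an exon 5 of 84 bp, although 4, all of the AGL17 clade, had an exon 6 of 84 bp behind an exon 5 of 42 bp. The 15 bases on either side of the place are shown for all members because they hold the exon junction in 6 genes and uninterrupted exon in SEP1 and SEP2. Capitals mark the last 15 bases of exon 5, or of the first 42 bases of the exon of 84 bp.
AP1, chr1:25983765-25983880, minus strand: GAGCTCCAAAAAAAGgagaaggccatacag
CAL, chr1:9101420-9101660, minus strand: CACCTCCAAAGAAAGgagaaggagatacag
FUL, chr5:24503823-24504020, minus strand: GCGCTCCAGAAGAAGgataaagccttgcaa
AGL79, chr3:11911668-11912263, plus strand: CAGCTTCAGAAAAAGgagaaggaactaaaa
SEP1, chr5:5152162-5152191, minus strand: GATCTTCAAAATAAAgagcaaatgttgctt
SEP2, chr3:465233-465262, minus strand: GATCTTCAAGGTAAGgagcatatcttgctt
SEP3, chr1:8594228-8594340, minus strand: GATCTTCAGAGTAAGgaacgcatgctgact
SEP4, chr2:1131065-1131164, plus strand: GACCTCAAAACTAAGgaggaaatgttattg
The reading frame continued across the place without a gap or an added base in SEP1 and SEP2. The first 42 bases of the SEP1 exon matched exon 5 of SEP3 at 81.0% of bases and that of SEP4 at 66.7%, and the last 42 bases matched their exon 6 at 59.5% and 71.4%. For SEP2 the values were 85.7% and 71.4% with exon 5, and 52.4% and 59.5% with exon 6. Against the AP1 clade both parts of the exon matched at 40.5% to 54.8% of bases.

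The last exons carried the remaining length differences. Exon 7 had 155 bp in AP1, 149 bp in CAL, 104 bp in FUL and 131 bp in AGL79, against 149 bp in SEP1, 146 bp in SEP2, 143 bp in SEP3 and 173 bp in SEP4, with the exons of SEP1 and SEP2 numbered as in the 8-exon genes. The clades overlapped in this exon. The coding part of the last exon ranged from 100 bp (CAL) to 112 bp (FUL) in the AP1 clade, against 91 bp (SEP3 and SEP4) to 94 bp (SEP1 and SEP2), with no overlap. FUL, which had the longest coding part of the last exon, had the shortest exon 7 and the shortest coding sequence, 729 bp. Total coding length was 768 bp in CAL, 771 bp in AP1 and 750 bp in AGL79, against 753 bp in SEP2 and SEP3, 756 bp in SEP1 and 777 bp in SEP4. These sums overlapped between the clades.

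By the summed difference in coding length over the first 6 coding exons, the genes most like a member among the 31 others were AGL14, AGL24, AGL42, SOC1, STK and SVP, tied at 3 bp. AGL24, AGL42, SOC1 and STK were nearest to SEP4, SVP to AP1, FUL and AGL79, and AGL14 to these 3 and to SEP4. AG and AGL24 had the same number of coding exons as SEP4 and the same lengths of exons 2 to 6. The arrangement of 79 and 65 bp in exons 2 and 3 occurred in 1 of the 31 others (SVP), against 82 and 62 bp in 6 of them (SOC1, AGL42, AG, SHP1, STK and AGL24). Exon 2 alone had 79 bp in 8 of the 31 and 82 bp in 7, whereas exon 3 had 65 bp in 1 and 62 bp in 25. AGL6 and AGL13, of the clade usually placed beside the SEP genes, had neither arrangement, with 79 and 62 bp in AGL6 and 76 and 62 bp in AGL13. Their summed differences from the nearest members were 6 bp (AGL6) and 15 bp (AGL13), and their first coding introns had 500 bp and 621 bp.

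In the first listed isoform, the AP1 clade genes had longer first introns than the SEP clade genes, with no overlap. Intron 1 had 1342 bp in AP1, 1055 bp in CAL, 893 bp in FUL and 1709 bp in AGL79, against 851 bp in SEP1, 599 bp in SEP2, 786 bp in SEP3 and 768 bp in SEP4. The medians were 1198.5 bp in the AP1 clade and 777 bp in the SEP clade, a difference of 421.5 bp, and the nearest values, FUL and SEP1, were 893 and 851 bp. These genes are related by descent and are not replicates, so no test was made of this or any other difference between the clades. With the shortest first intron over all isoforms of a gene, FUL had 365 bp and the clades overlapped, and in TAIR10.1, where AP1 then had 176 bp, the difference in medians was -67 bp. All 8 members had a first intron of at least 500 bp, against 11.6% of the 21275 coding genes with an intron, whose median was 156 bp. A long first intron was common among MIKC-type genes. In the 31 others the first intron inside the coding sequence had a median of 1139 bp (97 to 3493 bp), and it was longer than any SEP clade intron in 22 of them. It fell within the AP1 clade range in 11, within the SEP clade range in 3, and below the SEP clade range in 6.

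The AP1 clade introns were longer at several later positions as well. At position 6, between the last of the small exons and exon 7, the intron had 479 bp in AP1, 600 bp in CAL, 708 bp in FUL and 199 bp in AGL79, against 137 bp in SEP1, 176 bp in SEP2, 85 bp in SEP3 and 76 bp in SEP4. The ranges also stood apart at position 4, with 134 to 231 bp in the AP1 clade and 78 to 125 bp in the SEP clade. At position 5, where SEP1 and SEP2 have no intron, the AP1 clade had 86 to 566 bp, against 83 bp in SEP3 and 70 bp in SEP4. Positions 2, 3 and 7 overlapped, and at position 2 the medians were 103.5 and 101 bp. Single genes stood out at some positions: FUL with 420 bp at position 3, AGL79 with 566 bp at position 5, and AP1 with 425 bp at position 7. Of the introns after the first, 9 of 24 in the AP1 clade and 1 of 22 in the SEP clade (236 bp, in SEP2) exceeded 200 bp. The share above 200 bp was not counted over all coding genes or over the other MIKC-type genes. Over all coding genes the later introns had a median of 97 bp.

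**Figure D2:**
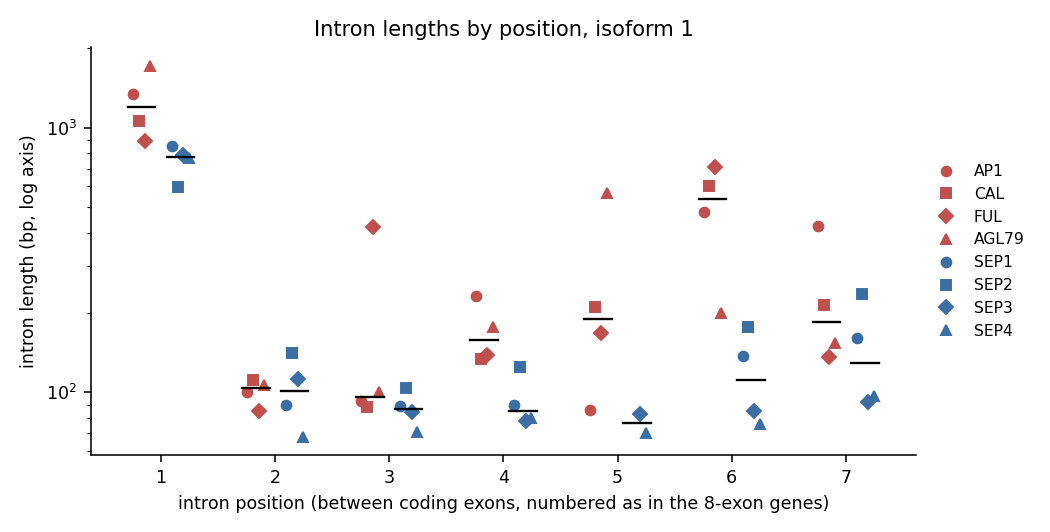
Intron length in bp (log axis) at each of the 7 intron positions for isoform 1 of the 4 AP1 clade genes (red, left) and the 4 SEP clade genes (blue, right); each point is a gene and black bars are medians. Red points lie above all blue points at positions 1, 4, 5 and 6, and position 5 is empty for SEP1 and SEP2.

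The AP1 clade genes held more intronic sequence. Introns summed to 2756 bp in AP1, 2413 bp in CAL, 2549 bp in FUL and 3012 bp in AGL79, against 1418 bp in SEP1, 1381 bp in SEP2, 1320 bp in SEP3 and 1230 bp in SEP4. They made up 69.2% to 80.1% of the span of isoform 1 in the AP1 clade and 47.8% to 58.2% in the SEP clade. The upper values belong to AGL79, with no annotated UTR, and SEP3, with UTRs of 47 and 148 bp, which shortens their spans. The other genes had 69.2% to 69.9% in the AP1 clade and 47.8% to 50.3% in the SEP clade. The first intron accounted for 35.0% of all intronic bases in FUL and for 56.7% in AGL79, against 43.4% in SEP2 and 62.4% in SEP4, so its share overlapped between the clades. Base composition overlapped too. GC content of intron 1 was 26.7% to 31.1% in the AP1 clade and 26.4% to 30.3% in the SEP clade, and that of the coding sequence was 45.1% to 46.8% in the AP1 clade and 41.6% (SEP4) to 45.9% in the SEP clade.

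The genes lie on 4 chromosomes. AP1 (25982330 to 25986313), CAL (9100153 to 9103603) and SEP3 (8593637 to 8596105) are on chromosome 1, with 504047 bp between CAL and SEP3. FUL (24502482 to 24506143) and SEP1 (5151334 to 5154154) are on chromosome 5, AGL79 (11909119 to 11912880) and SEP2 (464279 to 467074) on chromosome 3, and SEP4 (1129268 to 1131838) on chromosome 2. AGL79 and SEP4 are on the plus strand and the other 6 on the minus strand. The gap to the next coding gene on the 5′ side was 7345 bp in AP1, 1434 bp in CAL, 5052 bp in FUL and 20406 bp in AGL79, against 2194 bp in SEP1, 2859 bp in SEP2, 4359 bp in SEP3 and 6096 bp in SEP4. It exceeded 1500 bp in 7 of the 8 genes, with CAL as the exception. Of all gaps between neighbouring nuclear coding genes, on whichever side of a gene, 34.2% exceeded 1500 bp, and the median was 862 bp. On the 3′ side only SEP1 exceeded 1500 bp, with 4930 bp. The 3′ gap was 893 bp in AP1, 398 bp in CAL, 987 bp in FUL and 1485 bp in AGL79. It was 104 bp in SEP2, 647 bp in SEP3 and 331 bp in SEP4.

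The CArG box, the sequence that MADS-domain proteins bind, was searched as a pair of C, any 6 bases of A or T, and a pair of G. The pattern is its own reverse complement, so a search of 1 strand covers both. In the first 500 bases of intron 1 it occurred in 1 of the 8 genes, against 4.26% of the 1926 first coding introns of at least 500 bp and 0 of 28 such introns in the other MIKC-type genes. That gene was AP1, with ccatttttgg at base 137 of the intron. SEP3 had ccaattttgg further in, at base 553. In the 1000 bases before the start codon, which include any 5′ UTR there, the box occurred in 1 gene, SEP2, against 7.66% of all nuclear coding genes. The SEP2 box (cctaataagg) started 69 bases before the start codon, inside the annotated 5′ UTR of 387 bp. A match is a description of the sequence and says nothing of binding.

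The AP1 clade had 5 isoforms in the deposited annotation, 2 of them in FUL and 1 each in AP1, CAL and AGL79. The SEP clade had 9, with 2 in SEP1, 1 in SEP2 and 3 each in SEP3 and SEP4. Over all coding genes 21.2% had more than 1 isoform, against 4 of these 8. The coding sequences of the SEP clade isoforms differed at internal splice sites, by a skipped exon or by a kept intron, and in SEP3 and SEP4 the UTRs differed too. The additional isoform of FUL had another first exon.

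**Figure D3:**
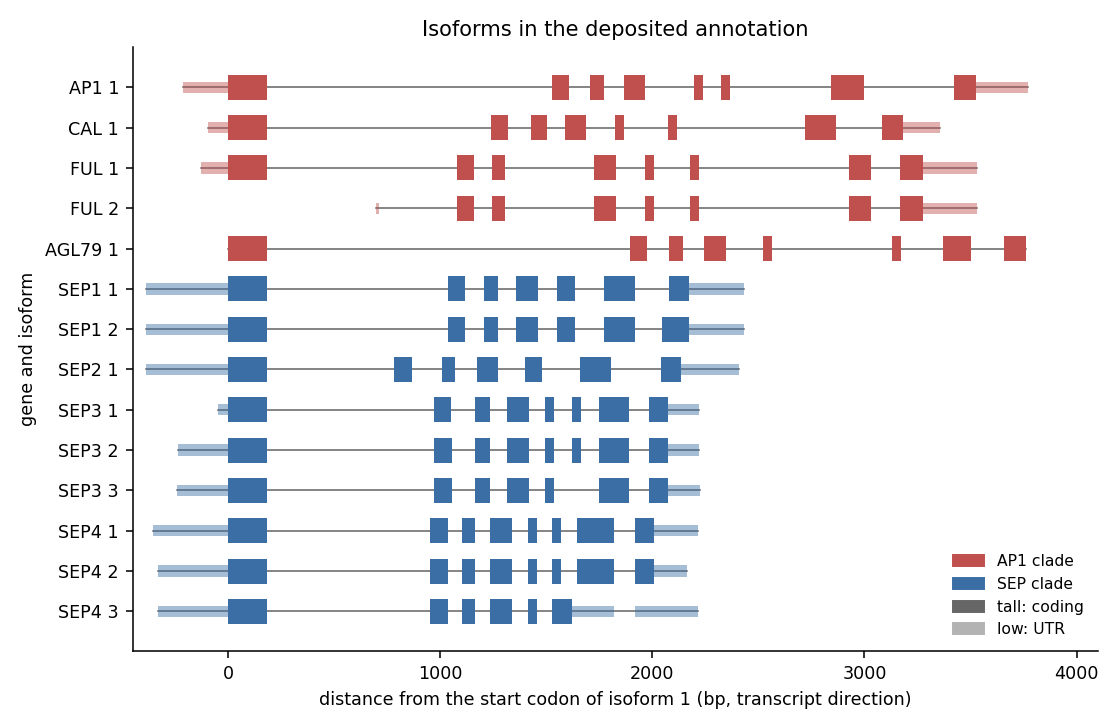
The 14 isoforms of the deposited annotation to scale, in bp from the start codon of isoform 1 of each gene, with coding sequence as tall boxes and UTRs as low boxes (red, AP1 clade; blue, SEP clade). FUL 2 starts in intron 1 of FUL 1, SEP3 3 lacks an exon of 42 bp, and SEP4 3 ends its coding sequence in a retained intron.

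Isoform 2 of FUL began with an exon of 16 bp inside intron 1 and lacked exon 1, which encodes most of the MADS domain. Its coding sequence started at an ATG in exon 2, at codon 63 of isoform 1, and had 180 codons against 242 in isoform 1. AP1 had 1 isoform in the deposited annotation, and the newer TAIR10.1 annotation adds isoforms 2 and 3. Its isoform 3 has the same arrangement as the short FUL form, with a first exon in intron 1, a first intron of 176 bp, and a coding start at codon 63, which leaves 194 of 256 codons. The first 24 bases of exon 2 are shown for all members because they hold this start, with the ATG in capitals where it is present at bases 2 to 4.
AP1, chr1:25984552-25984575, minus strand: tATGgagaagatacttgaacgcta
CAL, chr1:9102247-9102270, minus strand: cATGgagaaggtactagaacgcta
FUL, chr5:24504912-24504935, minus strand: cATGgagaggatacttgaacgcta
AGL79, chr3:11911013-11911036, plus strand: cATGgagagaattcttgatcgata
SEP1, chr5:5152708-5152731, minus strand: cATGctcaagacacttgatcggta
SEP2, chr3:465880-465903, minus strand: cATGctcaagacactggaaaggta
SEP3, chr1:8594868-8594891, minus strand: cATGcttcggacactggagaggta
SEP4, chr2:1130575-1130598, plus strand: tggtatggcgaggacggttgataa
The ATG was present in 4 of 4 AP1 clade genes and in 3 of 4 SEP clade genes. The other MIKC-type genes were not searched for it, so its share among them is not known. SEP4 had no ATG at these bases and had an ATG in the same frame at the next codon, codon 64 (bases 5 to 7 of exon 2). No isoform of CAL, AGL79 or a SEP gene started there in either annotation.

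SEP3, the SEP gene with the most partners among floral MADS-domain proteins, had 3 isoforms whose coding sequences differed at exons 2 and 6. Their 5′ ends differed as well, with a 5′ UTR of 236 bp in isoform 2 and 243 bp in isoform 3, against 47 bp in isoform 1. Isoforms 2 and 3 used a donor site of intron 2 that lies 3 bases downstream of that of isoform 1, which gave an exon 2 of 85 bp in place of 82 bp. Isoform 3 also lacked exon 6 (42 bp), so that the intron in its place had 210 bp. Exon 6 of SEP3 is known as the source of a circular RNA. The coding sequences had 250 codons in isoform 1, 251 in isoform 2 and 237 in isoform 3, all in the same reading frame. The donor of intron 2 is shown as used in isoforms 1 and 2, with exon in capitals.
SEP3 isoform 1, chr1:8594795-8594821, minus strand: GAGGCCTTAGCAgttgtacccaattct
SEP3 isoform 2, chr1:8594795-8594821, minus strand: GAGGCCTTAGCAGTTgtacccaattct
Both sites begin with GT.

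The coding sequences of SEP4 isoforms 1 and 2 differed by 3 bases as well, at the acceptor of intron 7, where AG occurs at both places. Isoform 2 had 257 codons and isoform 1 had 258. The UTRs were shorter in isoform 2, with 333 bp (5′) and 154 bp (3′), against 354 bp and 210 bp in isoform 1. Isoform 3 kept intron 6 (76 bp) in the transcript and its coding sequence ended, stop codon included, 51 bases into it, which gave 187 codons and a 3′ UTR of 499 bp with an intron inside. SEP1 isoform 2 used an acceptor of intron 6 that lies 33 bases upstream of that of isoform 1, which added 11 codons (262 against 251). In TAIR10.1, SEP2 gained an isoform 2 with an acceptor of intron 5 moved 31 bases upstream, which had 200 codons against 250. The intron changed in SEP2 isoform 2 and the intron kept in SEP4 isoform 3 are at the same position of the gene, between exons 6 and 7 of the 8-exon genes. The acceptors of SEP4 and SEP1 are shown with exon in capitals, and the end of the SEP4 isoform 3 coding sequence with the stop codon in capitals.
SEP4 isoform 1, chr2:1131523-1131549, plus strand: ttttgatataattagCAGTCATTACAA
SEP4 isoform 2, chr2:1131523-1131549, plus strand: ttttgatataattagcagTCATTACAA
SEP1 isoform 1, chr5:5151676-5151702, minus strand: tgatgatgatgacagGTATGATAATCC
SEP1 isoform 2, chr5:5151709-5151735, minus strand: tgtgaaccttttaagTTGCTGTTTTGG
SEP4 isoform 3, chr2:1131213-1131242, plus strand: cgcaagaaactgaaaccatttgtcattTGA
All 14 member isoforms gave an intact reading frame, and so did the 17 of TAIR10.1.

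In TAIR10.1 the AP1 clade had 7 isoforms, with 3 in AP1, and the SEP clade 10, with 2 in SEP2. AP1 isoform 2 used an acceptor of intron 7 that lies 257 bases upstream and had 234 codons. The coding exons of isoform 1 were the same in both annotations for all 8 genes.

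The 5′ UTR was longer in most SEP clade genes. In the deposited annotation it had 211 bp in AP1, 93 bp in CAL and 130 bp in FUL, against 387 bp in SEP1, 387 bp in SEP2, 47 bp in SEP3 and 354 bp in SEP4. AGL79 had no annotated UTR at either end and is left out of the medians, which were 130 bp in the AP1 clade and 370.5 bp in the SEP clade. SEP3 had the shortest in its clade in isoform 1. The 3′ UTR had 246 bp in AP1, 177 bp in CAL and 254 bp in FUL, against 260 bp in SEP1, 275 bp in SEP2, 148 bp in SEP3 and 210 bp in SEP4, with medians of 246 and 235 bp. No intron lay in a UTR of isoform 1 of any member.

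TAIR10.1 gave longer UTRs to most members and, in isoform 1, separated the clades at both ends. There the 5′ UTR of isoform 1 had 134 (CAL) to 256 bp (FUL) in the AP1 clade, against 261 (SEP3) to 464 bp (SEP2) in the SEP clade. The 3′ UTR ran the other way, with 282 (AP1) to 336 bp (CAL) in the AP1 clade, against 210 (SEP4) to 275 bp (SEP2). AGL79 had 249 and 286 bp. Over all TAIR10.1 isoforms the clades overlapped at both ends. The 5′ UTR had 236 bp in SEP3 isoform 2 and 243 bp in SEP3 isoform 3. The 3′ UTR had 456 bp in SEP2 isoform 2 and 499 bp in SEP4 isoform 3, against 605 bp in AP1 isoform 2 and 254 bp in FUL isoform 2. SEP3 gained 214 bp at the 5′ end and 106 bp at the 3′ end, CAL gained 159 bp at the 3′ end, and SEP4 gained none. SEP1 was the one member with exonic bases shared with another gene in TAIR10.1. The share of all coding genes with such an overlap was not counted. The long noncoding RNA gene AT5G02455 (TAIR10.1, chromosome 5, 5153720 to 5154168, opposite strand) shared 449 exonic bp with SEP1, 401 bp upstream of its start codon and 48 bp in coding sequence, and AT5G15790 shared 100 bp of the 3′ UTR on the opposite strand.

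**Figure D4:**
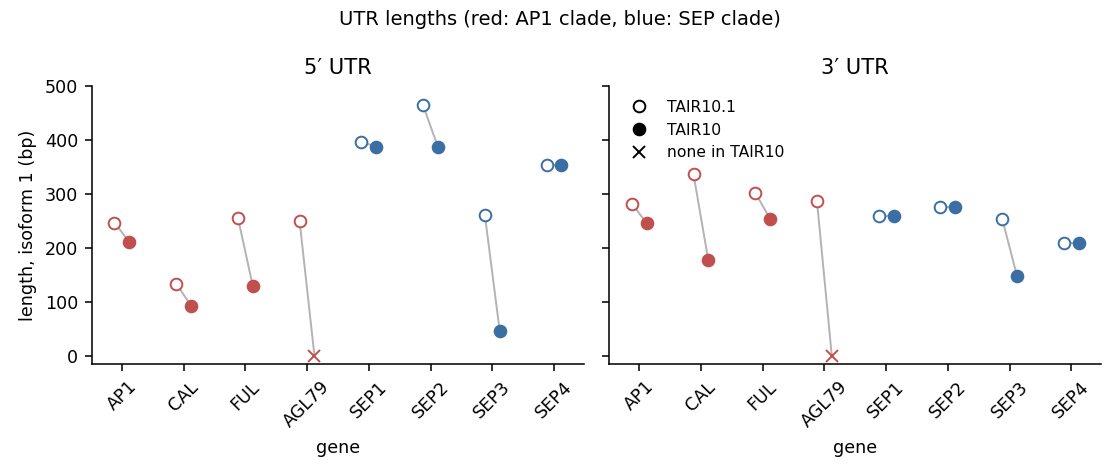
Length of the 5′ UTR (left) and 3′ UTR (right) of isoform 1 in bp for each gene, in TAIR10.1 (open circles) and in the deposited TAIR10 annotation (filled circles); crosses mark AGL79, which has none in TAIR10. Open red circles (AP1 clade) lie below open blue circles (SEP clade) on the left, with CAL lowest at 134 bp, and above them on the right, with CAL highest at 336 bp.

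Coding sequences were most alike within each clade. The 16 pairs between the clades had 57.0% to 62.8% identical bases (median 59.8%), against 62.8% to 84.3% (median 65.2%) for the 6 pairs within the AP1 clade and 65.6% to 86.4% (median 66.7%) for the 6 pairs within the SEP clade. Each clade had a close pair, AP1 and CAL with 84.3% and SEP1 and SEP2 with 86.4%. The next highest values were 68.5% for AP1 and FUL and 67.9% for SEP1 and SEP4. AGL79 was the most distant member of the AP1 clade, with 62.8% to 64.4% to the other 3. AP1 and CAL had an identical run of 56 bases, and the longest run in any of the other 27 pairs was 34 bases. The runs of 34 bases were in pairs between the clades (CAL and SEP4, FUL and SEP3, AP1 and SEP4). SEP1 and SEP2 had 32 bases, so run length did not follow the clades.

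**Figure D5:**
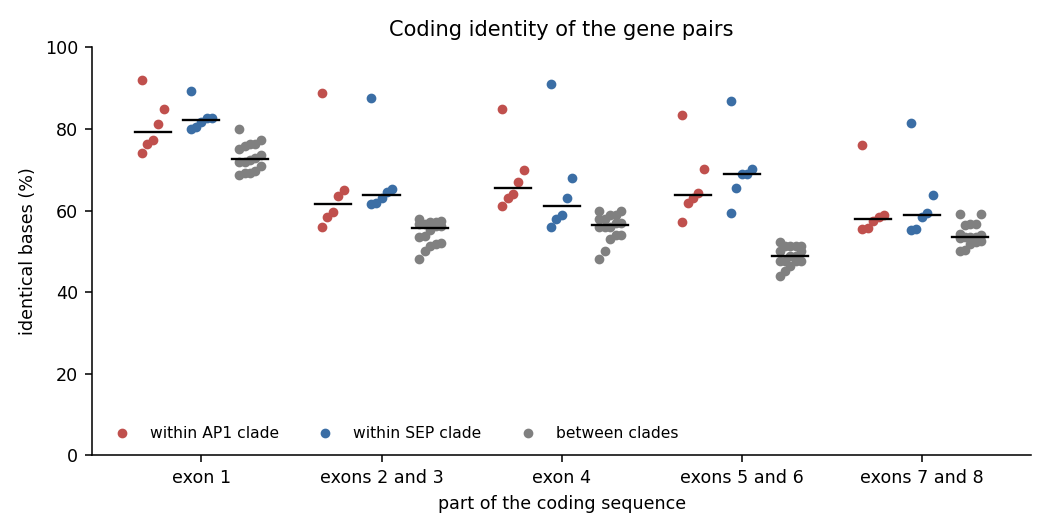
Identical bases in % for each gene pair in 5 parts of the coding sequence, within the AP1 clade (red, 6 pairs), within the SEP clade (blue, 6 pairs) and between the clades (grey, 16 pairs); black bars are medians. Exon 1 has the highest medians in all 3 kinds of pair, and in exons 5 and 6 the between-clade pairs (44.0% to 52.4%) lie below all within-clade pairs.

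The exons differed in how far they set the clades apart. Exon 1 was the most alike, with a median of 72.7% between the clades, 79.2% within the AP1 clade and 82.2% within the SEP clade. Its differences fell mostly on the third base of codons within clades, 67.5% of 212 in the AP1 clade and 74.3% of 191 in the SEP clade, against 55.0% of 794 between the clades, counted over pairs that share genes. In exons 5 and 6, which encode part of the K domain, pairs between the clades had 44.0% to 52.4% identical bases. Pairs within the AP1 clade had 57.1% to 83.3% and pairs within the SEP clade 59.5% to 86.9%, with no overlap. The other parts overlapped. Pairs between the clades reached 80.0% in exon 1, where the AP1 clade began at 74.1%. In exons 2 and 3 they reached 57.9%, against 56.0% as the lowest of the AP1 clade. In exon 4 they reached 60.0%, against 56.0% as the lowest of the SEP clade. Exons 7 and 8, which encode the C-terminal part, had medians of 53.6% between the clades, 58.0% within the AP1 clade and 59.0% within the SEP clade, and the ranges overlapped. They were aligned with gapped columns left out, as were exons 2 and 3, whereas exons 1, 4, and 5 with 6 were compared base by base. Percentages of these parts are therefore not on the same measure. AP1 and CAL were less alike there (76.0%) than in exon 1 (91.9%), as were SEP1 and SEP2 (81.4% and 89.2%).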

How the data were processed

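Poly(A) RNA libraries of soc1-ful and WT stem and leaf were strand-specific, per the labels' protocols; how reads were assigned to strands is not stated there. TopHat2 2.0.8, Trimmomatic 0.0.3 and the TAIR10 build are named, with no role, per the submitters' processing notes. The deposited file, per its second column, is the TAIR10 annotation (590264 lines of 9 columns), whose values are start and end positions in bp counted from 1. Its score column held a value in 0 lines, and 0 columns belong to a library.

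Gene models were read with Python 3.11.15 and the reading was tested on simulated data (200 of 200 gene models recovered). The first listed isoform was used unless stated. Bases came from the TAIR10.1 genome, whose 5 nuclear chromosomes have the TAIR10 lengths, and 27165 of 27206 nuclear coding genes (99.8%) gave an intact frame at TAIR10 positions. All 39 list symbols matched their locus in RefSeq's TAIR10.1 table.

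Exons 1, 4, and 5 with 6 were compared base by base. Other parts and whole coding sequences were aligned globally with Biopython 1.88 (match 2, mismatch -1, gap opening -5, extension -1), and gapped columns were left out. Figures were drawn with matplotlib 3.10.9. The members and lists were chosen with earlier results of these data known. All members are named, and of the 31 other genes AGL6, AGL13, those whose number of coding exons and exons 2 to 6 equal a member's, and the nearest exon patterns, with a tie kept whole; the genes that share the exon 2 and 3 arrangements, and the AGL17 clade, were chosen for naming once their values were known. The CArG search, the neighbouring genes and the codon positions were added after the data were examined.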

Additional observations from a re-analysis of the deposited data

How the results depend on the processing

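The difference in median first intron (421.5 bp, AP1 clade minus SEP clade) was the same with the isoform of longest coding sequence, the longest first intron over isoforms, the first intron inside the coding sequence and TAIR10.1, and lay between 278 and 565 bp when single genes were omitted. With the shortest first intron over all isoforms, chosen after seeing the data, it stayed at 421.5 bp in TAIR10, where FUL then had 365 bp, below the SEP clade, and was -67 bp in TAIR10.1, where AP1 then had 176 bp. The difference in 5′ UTR was -240.5 bp in TAIR10, -127.5 bp in TAIR10.1, and between -259 and -200 bp when single genes were omitted. The cause was not tested. The 3′ UTR difference (11 bp) had no stable sign, with 37 bp in TAIR10.1, -21.5 bp with the longest UTR over isoforms, -23.5 bp with AGL79 counted as 0 bp (chosen after seeing the data), and between -23.5 and 36 bp when single genes were omitted. The exon count of 3 in the SEP clade was 2 with the isoform of longest coding sequence, where SEP3 had an exon 2 of 85 bp. The protein identity comparison, with its BLOSUM45, denominator and exon 1 alternatives, was not run, since no protein table was used here. With the isoform of longest coding sequence the identity medians were 65.2% within the AP1 clade, 66.5% within the SEP clade and 59.9% between them. The isoform counts were 7 for the AP1 clade and 10 for the SEP clade in TAIR10.1, against 5 and 9 in TAIR10. No paired analysis was possible because the result comes from gene models and the library labels carry no replicate numbers. The read depth of the libraries of this study did not enter these lengths and is not analysed here.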
